A study of Mus musculus with 4 samples.

Results

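The genes described here are the 4 surfactant protein genes of the mouse, Sftpa1, Sftpb, Sftpc and Sftpd, and 2 protease genes, Napsa and Ctsh, whose products cut surfactant proproteins. They were taken by symbol, and all 6 were found among the 23444 genes of the table. The RNA came from lung cells of E18.5 mouse embryos, shortly before birth, sorted for EpCAM, a surface protein of epithelial cells. The 2 KO libraries are from embryos with a conditional knockout of Emc3, which encodes a core subunit of the ER membrane protein complex, and the 2 WT libraries are from wild-type embryos. The sources used here do not give the strain, the driver of the knockout, the number of animals in a library or what the WT embryos carried besides wild-type Emc3. The column headings give each library its group and a number of unstated meaning, from which the names KO 27, KO 35, WT 27 and WT 35 are taken. Where 2 values are given for a group, the first is that of number 27 and the second that of number 35.

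Headings and sample titles do not give the same groups. The titles call the sample with the number of KO 27 wild-type and the sample with the number of WT 35 knockout. The headings are followed below, since Emc3 had 2.28 and 2.33 RPKM in KO, against 14.2 and 17.99 RPKM in WT. RPKM are read numbers scaled to gene length and to sequencing depth, so levels of different genes can be set side by side. The ± values are SDs (n = 2 for each group), and nothing says that the libraries of a group came from separate litters.

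The epithelium of the late fetal lung makes surfactant, the mixture of lipid and protein that keeps the air spaces open after birth. Alveolar type 2 cells store it in lamellar bodies, organelles related to lysosomes. SP-B and SP-C, the hydrophobic proteins, are made as larger precursors that enter the ER and are trimmed by proteases on the way to the lamellar body, while SP-A and SP-D are secreted lectins of host defence. The precursor of SP-C spans the ER membrane.

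RPKM summed to 141373 and 146918 in KO and to 151616 and 169294 in WT. The low values put the libraries within a depth ratio of 1.09 of each other, and their read numbers are unknown. Xist was at 0.135 and 55.8 RPKM in KO and at 83.8 and 0.114 RPKM in WT, so each group held a library with and a library without this RNA of female cells. The 6 genes together took 7.30% and 7.09% of the RPKM total in KO, against 5.61% and 7.53% in WT. The mean share differed by 0.62 percentage points, KO minus WT. Without microRNA and small nucleolar RNA genes in the total, it differed by 0.021. With single libraries left out, the difference ran from -0.34 to 1.58. Sftpc alone accounted for 68.9% and 65.7% of the summed RPKM of the 6 genes in KO and for 72.5% and 71.5% in WT.

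The genes lie at 5 places in the genome (GRCm38, the build that mm10 names), with positions from GENCODE. Sftpb is on the forward strand of chromosome 6 (72304610 to 72314371) and Sftpc on the reverse strand of chromosome 14 (70520949 to 70524081). Sftpa1 (41131782 to 41136452, forward) and Sftpd (41172214 to 41185149, reverse) are neighbours on chromosome 14, with 35762 bases and the lectin gene Mbl1 between them. Napsa is on the forward strand of chromosome 7 (44572380 to 44586862), where an antisense gene, Gm15396, overlaps 6895 of its bases. Strand is not marked by the Nextera XT kit, and reads of these 2 genes cannot be told apart. Ctsh is on the forward strand of chromosome 9 (90054152 to 90076089).

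NKX2-1, the lineage transcription factor of the lung epithelium, is known to activate the surfactant protein genes through sites with a CAAG core. Nkx2-1 had 271 and 264 RPKM in KO and 270.1 and 278 RPKM in WT, among the least variable values here. Promoters of 2 of the genes are in the RefSeq table for GRCm38.p6 and are shown because such letters can be read in them, from 250 bases before the RefSeq start to 50 bases after it. Capitals mark the motif CTCAAG, the motif CACTTG and the TATA box letters TATAA, all searched on both strands. The Sftpb promoter is chr6:72304360-72304659, forward strand, and the Sftpa1 promoter is chr14:41131538-41131837, forward strand.
Sftpb: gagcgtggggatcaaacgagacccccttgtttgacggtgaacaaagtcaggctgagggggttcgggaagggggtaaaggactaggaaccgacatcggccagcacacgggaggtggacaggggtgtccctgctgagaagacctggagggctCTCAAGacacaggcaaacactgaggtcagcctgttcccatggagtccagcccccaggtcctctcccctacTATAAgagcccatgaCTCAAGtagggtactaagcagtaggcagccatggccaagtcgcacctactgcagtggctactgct
Sftpa1: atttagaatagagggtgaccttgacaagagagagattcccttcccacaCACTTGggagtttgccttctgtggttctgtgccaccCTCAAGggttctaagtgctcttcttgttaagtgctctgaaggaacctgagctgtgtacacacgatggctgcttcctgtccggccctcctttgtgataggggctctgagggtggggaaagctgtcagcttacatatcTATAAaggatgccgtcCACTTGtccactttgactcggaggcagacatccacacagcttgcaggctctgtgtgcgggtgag
Counted from the RefSeq start, CTCAAG begins at -100 and -15 in Sftpb and at -166 in Sftpa1, and CACTTG begins at -202 and -14 in Sftpa1. TATAA begins at -30 in both promoters. Among 32851 RefSeq promoters of the same length, 15.9% hold CTCAAG, 13.6% hold CACTTG and 24.9% hold TATAA on either strand, so such letters are common.

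Whether loss of Emc3 goes with a different level of these RNAs was asked first for the hydrophobic proteins. Sftpb, whose product SP-B spreads lipid at the air surface and is needed for breathing, had 1600.0 and 1709 RPKM in KO, against 1215 and 1862 RPKM in WT. Both KO values fell between the 2 WT values. The means were 1655 ± 77.2 RPKM in KO and 1538 ± 457 RPKM in WT. Sftpc, the gene of the small membrane-embedded SP-C and a marker of type 2 cells, had 7111 and 6846 RPKM in KO, against 6166 and 9124 RPKM in WT. It was the most abundant RNA of the table in both KO libraries and ranked 2 in WT 27 and 3 in WT 35. On log2(RPKM + 1), the KO minus WT difference was 0.14 for Sftpb (95% interval -0.46 to 0.73, limma adjusted p = 0.848) and -0.10 for Sftpc (-0.70 to 0.49, adjusted p = 0.887). As ratios, these intervals run from 0.727 to 1.66 for Sftpb and from 0.618 to 1.40 for Sftpc. In sorted bulk cells, fewer cells of a type and less RNA per cell cannot be told apart.

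The 2 collectins, calcium-dependent lectins that bind microbes, lay lower and spread more. Sftpa1, the gene of SP-A, had 492 and 534 RPKM in KO, against 396 and 723 RPKM in WT. Sftpd, the gene of SP-D, had 99.9 and 137 RPKM in KO, against 61.8 and 125 RPKM in WT. For both genes the groups overlapped, and WT 27 held the lowest value. The log2 difference was -0.06 for Sftpa1 (95% interval -0.80 to 0.68, limma adjusted p = 0.950) and 0.41 for Sftpd (-0.47 to 1.29, adjusted p = 0.678). The interval of Sftpd, the widest of the 6, reaches from a ratio of 0.720 to one of 2.44.

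**Figure D1:**
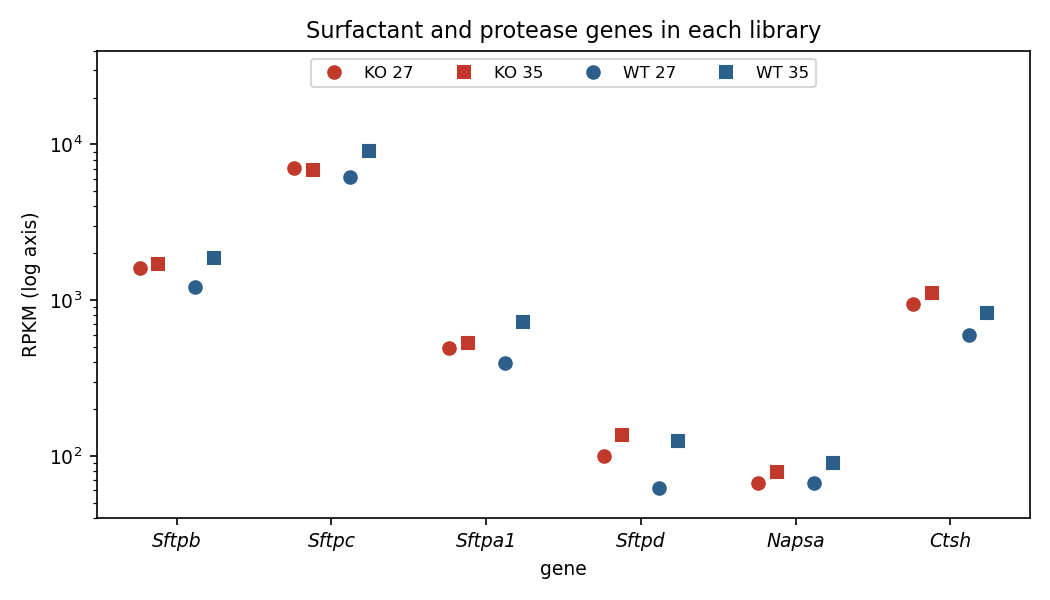
RPKM (log axis) of the 6 genes in KO 27, KO 35, WT 27 and WT 35, 1 point per library, circles for number 27 and squares for number 35. For Sftpb, Sftpc and Sftpa1 the 2 KO points lie between the 2 WT points, and for Ctsh both KO points (945 and 1115) lie above both WT points (601 and 832).

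Of the proteases, Ctsh was the gene that separated the groups. Ctsh encodes cathepsin H, a lysosomal cysteine protease known to act on the precursors of SP-B and SP-C. It had 945 and 1115 RPKM in KO, against 601 and 832 RPKM in WT. Both KO libraries lay above both WT libraries, with means of 1030.2 ± 120.1 RPKM in KO and 716 ± 164 RPKM in WT, a ratio of 1.44. The log2 difference was 0.54 (SE 0.22, 95% interval 0.0030 to 1.07). Its unadjusted limma p was 0.0491 and its adjusted p 0.359, so it did not pass the threshold of 0.05.

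Napsa encodes napsin A, an aspartic protease of type 2 cells that trims the SP-B precursor. It had 67.0 and 78.5 RPKM in KO, against 67.0 and 89.6 RPKM in WT. The groups overlapped, and the values of KO 27 and WT 27 were nearly equal. The log2 difference was -0.09 (95% interval -0.57 to 0.39, limma adjusted p = 0.874), which leaves room for ratios from 0.673 to 1.31.

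Over all 10128 genes tested, 7 passed the adjusted threshold (0.0691%), none of them among the 6. An unadjusted p under 0.05 was reached by 13.8% of all genes and by 1 of the 6. Both KO libraries lay above both WT libraries for 30.0% of all genes and for 1 of the 6, Ctsh. Both lay below for 16.3% of all genes and for 0 of the 6, so the groups did not overlap for 46.4% of all genes and for 1 of the 6. The median log2 difference was 0.04 over the 6 genes and 0.06 over all genes tested, so neither the counts nor the median set the 6 apart. With 2 libraries against 2, an exact two-sided permutation test of a single gene cannot give a p under 0.333. The groups of the titles set number 35 against number 27, so each side held a KO and a WT library by the headings. Emc3 differed by 0.17 in that fit, which is thus no contrast of low with high Emc3 RNA. All 6 log2 differences were positive in it, from 0.26 for Sftpc to 0.73 for Sftpd, and none passed (limma adjusted p = 0.998 for each). Without KO 27 and WT 35, whose titles and headings disagree, KO 35 exceeded WT 27 by 0.15 for Sftpc, 0.23 for Napsa, 0.43 for Sftpa1, 0.49 for Sftpb, 0.89 for Ctsh and 1.13 for Sftpd on the log2 scale, from 1 library a group and with no test. By the headings, Sftpa1, Sftpc and Napsa were thus lower in KO over all libraries and higher with KO 35 and WT 27 alone. KO 27 and WT 35 are also the libraries without Xist RNA (0.135 and 0.114 RPKM), so disagreeing titles and sex cannot be told apart here.

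**Figure D2:**
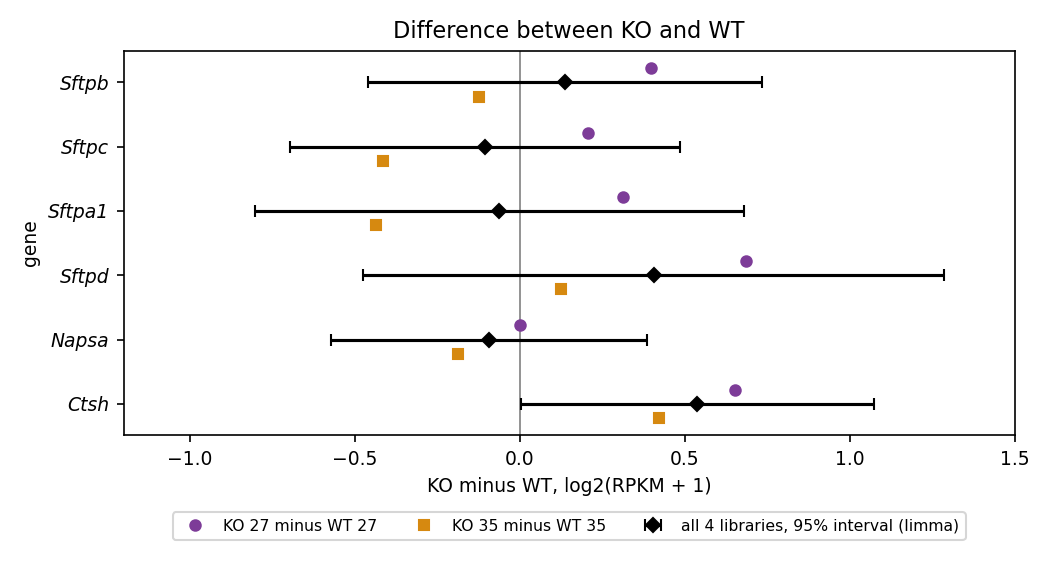
KO minus WT on log2(RPKM + 1) for the 6 genes, with limma's 95% interval (black, all 4 libraries) and the differences KO 27 minus WT 27 (circles) and KO 35 minus WT 35 (squares). The interval lies above 0 only for Ctsh (0.0030 to 1.07, unadjusted), and the circle lies right of the square for every gene.

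The spread came mainly from the WT libraries. WT 35 exceeded WT 27 for all 6 genes and for 55.7% of all genes tested. The ratio was 1.34 for Napsa, 1.39 for Ctsh, 1.48 for Sftpc, 1.53 for Sftpb, 1.83 for Sftpa1 and 2.03 for Sftpd. The median ratio was 1.51 for the 6 genes and 1.04 for all genes tested, and WT 35 reached at least 1.3 times WT 27 for 19.6% of all genes. WT 27 was the lowest of the 4 libraries for all 6 genes, as it was for 33.6% of all genes. KO 35 exceeded KO 27 for 5 of the 6 genes and for 54.1% of all genes. The KO libraries were closer, with ratios of KO 35 to KO 27 from 0.963 for Sftpc to 1.37 for Sftpd. The 16 listed markers of type 2 cells differed in the same way: 15 of them were higher in WT 35 than in WT 27, and 8 were lowest in WT 27. Scgb1a1, the main secretory protein gene of club cells, had 9678 RPKM in WT 35 and between 1560 and 2698 RPKM in the other 3 libraries. The part of cell composition in the members' spread was not tested.

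Within a heading number the direction was therefore not the same. KO 27 exceeded WT 27 by 0.40 for Sftpb, 0.31 for Sftpa1 and 0.21 for Sftpc on the log2 scale. KO 35 was below WT 35, with differences of -0.12 for Sftpb, -0.44 for Sftpa1 and -0.41 for Sftpc. For Ctsh the differences were 0.65 with number 27 and 0.42 with number 35, and for Sftpd 0.69 and 0.13. Opposite signs in the 2 comparisons were seen for 4 of the 6 genes and for 36.0% of all genes.

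**Figure D3:**
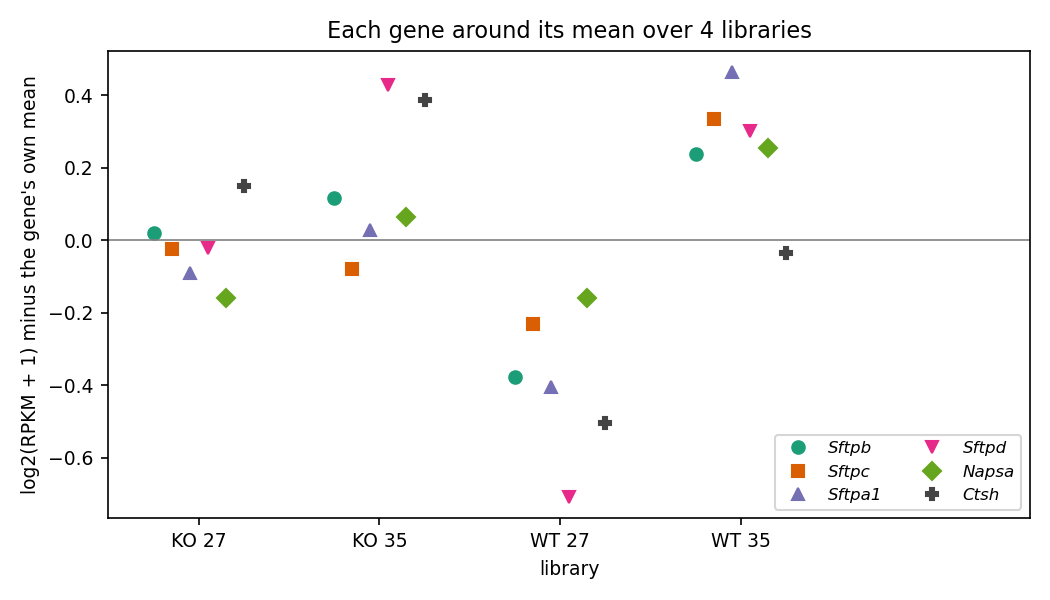
Log2(RPKM + 1) of each of the 6 genes minus its own mean over the 4 libraries, by library. All 6 genes are lowest in WT 27, where Napsa nearly ties with KO 27, and 4 of them are highest in WT 35, while Ctsh and Sftpd are highest in KO 35.

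Ratios between the genes within a library remove what moves all 6 together. Ctsh to Napsa was 14.1 and 14.2 in KO, against 8.97 and 9.29 in WT. This ratio was nearly the same within each group and 1.55 times higher in KO. Ctsh was at 13.3% and 16.3% of Sftpc in KO, against 9.74% and 9.12% in WT. It was at 59.1% and 65.2% of Sftpb in KO, against 49.4% and 44.7% in WT. Relative to these 3 genes Ctsh was thus higher in both KO libraries than in both WT libraries. Sftpb was at 22.5% and 24.97% of Sftpc in KO, against 19.7% and 20.4% in WT. Napsa was at 4.19% and 4.59% of Sftpb in KO, against 5.51% and 4.81% in WT. Napsa to Sftpc overlapped between the groups, at 0.943% and 1.15% in KO and at 1.09% and 0.982% in WT.

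Among the 15 pairs of the 6 genes, 10 had ratios that did not overlap between KO and WT. This is to be read against 45.8% of the 67161 pairs of genes with a mean of at least 50 RPKM. Of the 5 pairs with Ctsh 4 did not overlap, and of the 10 pairs without it 6 did not. The ratios were not tested.

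**Figure D4:**
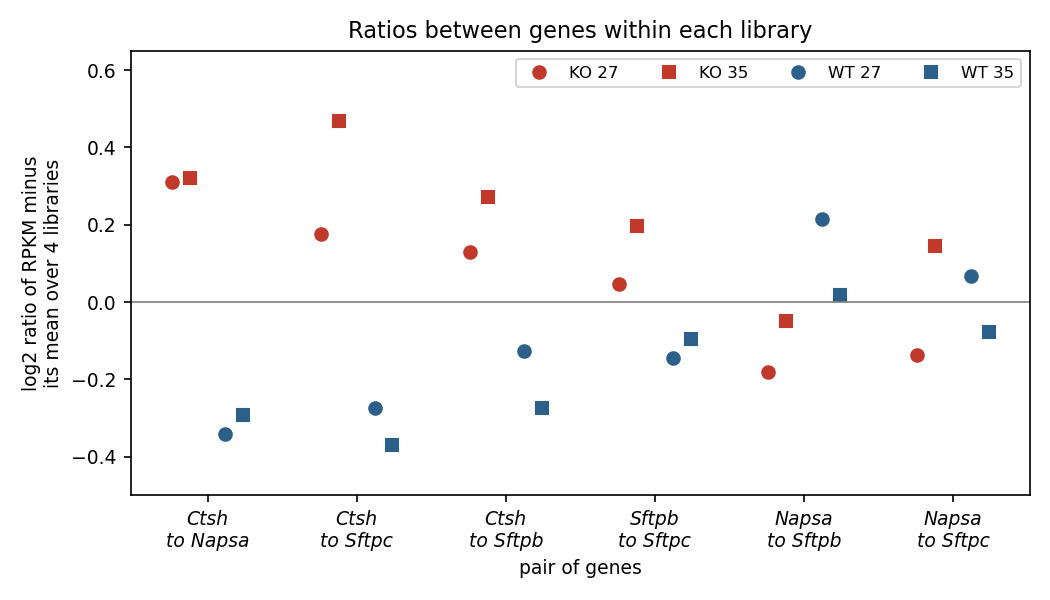
Log2 ratio of RPKM for 6 pairs of genes, minus the mean of that ratio over the 4 libraries, 1 point per library. For Ctsh to Napsa the KO points coincide (14.1 and 14.2) above the WT points (8.97 and 9.29), and for Napsa to Sftpc the groups overlap.

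The level relative to other type 2 cell genes depends on the gene it is set against. Minus the mean of the 16 type 2 markers on log2(RPKM + 1), all 6 genes were higher in both KO libraries than in both WT libraries, as were 76.9% of the 10112 tested genes outside the base. None of the 6 and 2.08% of those genes were lower in both KO libraries. The 6 genes thus cannot be told from most genes by this count. The base itself was lower in KO by this measure, with a KO minus WT difference of -0.48 in the mean of the 16 markers and a median of -0.23. The KO minus WT difference of the 6 genes on this base ran from 0.37 for Sftpc and 0.39 for Napsa to 0.89 for Sftpd and 1.02 for Ctsh. By RPKM alone, both KO libraries lay below both WT libraries for 16.3% of all genes tested and above for 30.0%. Of the 16 markers, 5 lay below both WT libraries in both KO libraries, 1 lay above and 10 overlapped, and none passed the adjusted threshold. The largest difference was that of Chil1, a chitinase-like protein gene, with 12.4 and 7.64 RPKM in KO, against 129 and 27.1 RPKM in WT. Egfl6 went the other way, with 277 and 293 RPKM in KO, against 154 and 165 RPKM in WT. Fabp5, a fatty acid binding protein gene, had 39.4 and 42.8 RPKM in KO, against 85.3 and 106 RPKM in WT. Lyz1, a lysozyme gene, had 388 and 517 RPKM in KO, against 1003 and 3163 RPKM in WT. Set against Epcam itself, at 52.9 and 53.9 RPKM in KO and 35.2 and 46.2 RPKM in WT, the differences were -0.50 for Sftpc, -0.49 for Napsa, -0.46 for Sftpa1, -0.26 for Sftpb, 0.01 for Sftpd and 0.14 for Ctsh. On that base 4 of the 6 genes and 58.7% of all tested genes but Epcam lay below both WT libraries in both KO libraries, while 0 of the 6 and 2.49% lay above. The relative level thus has no single direction for Sftpa1, Sftpb, Sftpc and Napsa.

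Of the markers of other cells, the sums of the immune and ciliated lists separated the groups, and those of the other lists below overlapped. No gene of these lists passed the adjusted threshold. All 5 tested immune markers of 7 were higher in both KO libraries, as were 30.0% of all genes. Of these, Tyrobp and Cd52 reached 1 RPKM in KO only, so their place above WT follows from the filter. The untested Csf1r overlapped, at 0.544 and 0.697 RPKM in KO and at 0.356 and 0.609 RPKM in WT. All 7, tested or not, summed to 17.6 and 15.7 RPKM in KO and to 6.86 and 5.37 RPKM in WT. Ptprc, the defining leukocyte marker, was at 0.401 and 0.185 RPKM in KO and at 0.177 and 0.0616 RPKM in WT. All 5 ciliated cell markers were lower in both KO libraries, as were 16.3% of all genes. Their sums were 70.6 and 70.5 RPKM in KO and 107 and 167 RPKM in WT. The 6 club cell markers summed to 1837 and 2995 RPKM in KO and to 2945 and 10115 RPKM in WT. The 10 markers of alveolar type 1 cells, the flat cells of gas exchange, summed to 373 and 405 RPKM in KO and to 527 and 380.1 RPKM in WT. Endothelial markers summed to between 9.64 and 13.6 RPKM, mesenchymal markers to between 16.4 and 23.2 RPKM and red cell markers to between 1.80 and 5.34 RPKM over the 4 libraries. Leukocytes also express Ctsh, and their part in its difference was not tested.

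The genes most like each of the 6 were sought among 366 others with a mean of at least 50 RPKM. Likeness was the root mean square distance between log2 values centred over the 4 libraries. Sftpc was nearest to Lamp3 (distance 0.040), a lamellar body membrane protein gene, then to the noncoding RNA Meg3 (0.065) and to Lpcat1 (0.072), which encodes an enzyme of surfactant lipid synthesis. Lamp3 had 232 and 241 RPKM in KO, against 210.3 and 313 RPKM in WT. Sftpb was nearest to Cd36 (0.012), a fatty acid receptor gene, Tpt1 (0.036) and Wfdc2 (0.038). Sftpa1 was nearest to Dbi (0.046), Lcn2 (0.059) and Nucb2 (0.075), and Sftpd to Cd24a (0.045), Tgoln1 (0.061) and Pla2g1b (0.11). Napsa was nearest to Mgst1 (0.055), the sodium channel subunit gene Scnn1a (0.057) and the noncoding RNA Rian (0.058). Ctsh was nearest to Errfi1 (0.034), B2m (0.054) and Dad1 (0.056). Among the 6 themselves, the smallest distance was 0.11, between Sftpc and Napsa, and the largest was 0.35, between Sftpc and Sftpd. Over 4 libraries such distances describe these libraries only.

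The protein-coding genes next to Ctsh were also higher in both KO libraries. Rasgrf1, which encodes an exchange factor for Ras, had 6.49 and 8.09 RPKM in KO, against 2.63 and 3.35 RPKM in WT, a log2 difference of 1.05 (limma adjusted p = 0.155). Morf4l1, a chromatin protein gene on the other side, had 13.98 and 17.3 RPKM in KO, against 10.8 and 11.8 RPKM in WT (adjusted p = 0.332). Next to the other genes, Atoh8 beside Sftpb was higher in both KO libraries, at 4.88 ± 1.13 RPKM in KO and 2.85 ± 0.0814 RPKM in WT (adjusted p = 0.247). Mat1a and Mbl1 beside Sftpa1 averaged between 1.26 and 1.49 RPKM in either group. Bmp1, which begins 715 bases from Sftpc, had 14.9 ± 3.52 RPKM in KO and 13.4 ± 5.75 RPKM in WT.

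Other genes of the surfactant system were counted from lists. No gene of these lists passed over all genes tested, where 8.17% reached an unadjusted limma p under 0.05 as higher and 5.68% as lower. In the list of lamellar body and lipid handling genes, 11 of 12 in the table were tested, 1 reached that p as higher and 2 as lower, and the median log2 difference was -0.12. Abca1, which exports cholesterol, had 1.45 and 1.26 RPKM in KO, against 6.99 and 6.03 RPKM in WT, a log2 difference of -1.67 (limma adjusted p = 0.0502). Abca3, which loads lipid into lamellar bodies, had 59.2 and 51.5 RPKM in KO, against 70.1 and 90.0 RPKM in WT (adjusted p = 0.308). Slc34a2, the phosphate carrier of type 2 cells, had 1214 and 1172 RPKM in KO, against 1150 and 1741 RPKM in WT, where KO lay between and near WT 27.

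Of 20 listed transcription factors of surfactant genes, 18 were tested, 2 reached an unadjusted p under 0.05 as higher and 1 as lower, with a median of 0.04. Stat3 had 26.95 and 27.7 RPKM in KO, against 17.4 and 19.2 RPKM in WT (limma adjusted p = 0.205). Cebpd had 2.03 and 2.62 RPKM in KO, against 0.720 and 1.38 RPKM in WT (adjusted p = 0.254). Etv5, an ETS factor that maintains type 2 cells, had 69.6 and 61.9 RPKM in KO, against 85.8 and 92.6 RPKM in WT (adjusted p = 0.298). These 3 genes were named for their small p, so their separation by group follows from the choice, and none passed. Over the 18 tested, both KO libraries lay above both WT ones for 5 and below for 4. Over all genes these shares were 30.0% and 16.3%.

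Of the 9 other cysteine cathepsins, the family of Ctsh, 6 were tested, 2 reached an unadjusted p under 0.05 as higher and 0 as lower, and none passed. The 6 log2 differences were positive, as for 59.2% of all genes, from 0.02 for Ctso to 0.96 for Ctss with a median of 0.22. For 3 of the 6 both KO libraries lay above both WT ones, against 30.0% of all genes. Ctsf, Ctsk and Ctsw were too low to be tested. Ctsz had 28.6 and 26.3 RPKM in KO, against 17.9 and 21.0 RPKM in WT (limma adjusted p = 0.267). Ctss, a cathepsin of antigen-presenting cells, had 4.93 and 2.96 RPKM in KO, against 1.38 and 1.61 RPKM in WT (adjusted p = 0.202). The sum of the immune markers given above was also higher in both KO libraries. Of the 8 listed aspartic proteases 4 were tested, 1 as higher and 1 as lower at an unadjusted p under 0.05, with a median of 0.06. Pgc encodes pepsinogen C, which in human type 2 cells is known to take part in SP-B processing. It had 2.44 and 2.93 RPKM in KO, against 12.7 and 6.32 RPKM in WT, a log2 difference of -1.45 (adjusted p = 0.194).

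Cystatins and stefins, the inhibitors of cysteine proteases, had 4 tested members of 11 in the table, with 1 as higher and 1 as lower and a median of 0.09. Cstb, the gene of cystatin B, had 158 and 183 RPKM in KO, against 93.3 and 76.4 RPKM in WT (limma adjusted p = 0.159). Other proteins that share a fold with the surfactant proteins were mostly low. Of 7 other collectins and ficolins 2 were tested, none with an unadjusted p under 0.05 (median 0.07). Of 11 genes of saposin fold proteins, the fold of SP-B, 7 were tested, with 1 as higher (Manf, 4.27 and 4.02 RPKM in KO, against 2.30 and 2.09 RPKM in WT) and a median of 0.15. Of 9 genes of BRICHOS proteins, the domain of the SP-C precursor, 3 were tested, with 1 as higher (Itm2c, 12.7 and 16.6 RPKM in KO, against 9.21 and 9.04 RPKM in WT) and a median of -0.24.

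Factors that bind, sort or degrade the SP-C precursor were all tested, 13 of 13. Of these 4 reached an unadjusted p under 0.05 as higher and 0 as lower, and the median was 0.21. For 9 both KO libraries lay above both WT ones, against 30.0% of all genes, and for 1, Nedd4l, both lay below, against 16.3%. Hspa5, the gene of the ER chaperone BiP, had 158 and 173 RPKM in KO, against 95.4 and 84.9 RPKM in WT (log2 difference 0.87, limma adjusted p = 0.159). Dnajb9, whose product ERdj4 binds misfolded SP-C precursor, had 8.41 and 12.8 RPKM in KO, against 3.59 and 5.67 RPKM in WT (adjusted p = 0.207). The ubiquitin ligase genes Nedd4l, Nedd4 and Itch, tied to SP-C sorting, had log2 differences of -0.25, 0.10 and 0.25. Receptors and clearance genes had 8 of 11 tested, 2 as higher and 0 as lower, with a median of 0.25. Calr, a chaperone gene whose product also serves as a receptor for collectins, had 44.3 and 42.0 RPKM in KO, against 26.2 and 29.4 RPKM in WT (adjusted p = 0.196).

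The authors' deposited table also holds a signed fold change per gene, the ratio of mutant to control or minus its inverse, and for 3 of the 6 genes it was far from the ratio of the RPKM columns. The authors' deposited table gives -2.04 for Sftpb, where the RPKM ratio of KO to WT means was 1.08. It gives -2.07 for Napsa (RPKM ratio 0.930) and -1.30 for Ctsh (RPKM ratio 1.44), all in the authors' deposited table. The authors' deposited table gives -1.13 for Sftpa1 (RPKM ratio 0.917), -1.17 for Sftpc (RPKM ratio 0.913) and 1.25 for Sftpd (RPKM ratio 1.27), which are close to the RPKM ratios. For Emc3 the authors' deposited table gives -13.6 (p = 1.35e-05), against an RPKM ratio of 0.143. The p-values in the authors' deposited table were 0.287, 0.269 and 0.743 for Sftpb, Napsa and Ctsh and 0.803, 0.762 and 0.697 for Sftpa1, Sftpc and Sftpd.

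What the 2 sets of 3 genes share is their chromosome. Sftpa1, Sftpc and Sftpd lie on chromosome 14, and Sftpb, Napsa and Ctsh on 6, 7 and 9. Over genes above 5 RPKM in all 4 libraries, the log2 RPKM ratio was set against the log2 of the fold change in the authors' deposited table, a comparison chosen after the values were seen. For 1962 genes on chromosomes 1, 10 to 19 and the first part of 2, the RPKM ratio exceeded the value of the authors' deposited table by a median of 0.06 (5th to 95th percentile 0.0026 to 0.15). For 1636 genes on the rest of chromosome 2, on 3 to 9 and on X, it exceeded it by a median of 1.04 (0.86 to 1.29). On chromosome 2 the step lay between Xrn2 and Gzf1, with 195 genes before it, 76 after it and 0 on the wrong side of a difference of 0.6. The RPKM ratios themselves showed no such step, with medians of 0.09 and 0.07 on the log2 scale for the 2 sets.

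The calls in the authors' deposited table follow the same step. In the set with the step, 78 genes (4.77%) had a deposited p under 0.05 and all 78 were lower, against 5 genes (0.255%) in the other set of the authors' deposited table, 3 lower and 2 higher. In the authors' deposited table, 99.1% of the 1636 genes of the set with the step were lower, against 38.8% by the RPKM ratio. In the set with the step, the log2 fold change of the authors' deposited table lay closest to the RPKM of KO 35 alone, divided by 2 and by the WT mean. Its median absolute distance from that value was 0.063, against 0.16 for KO 27 used in the same way. The cause of the step was not tested. By sign, Sftpb and Ctsh were lower in KO in the authors' deposited table, like nearly all genes of the set with the step. By the RPKM means, both were higher in KO. No test was passed in either.

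**Figure D5:**
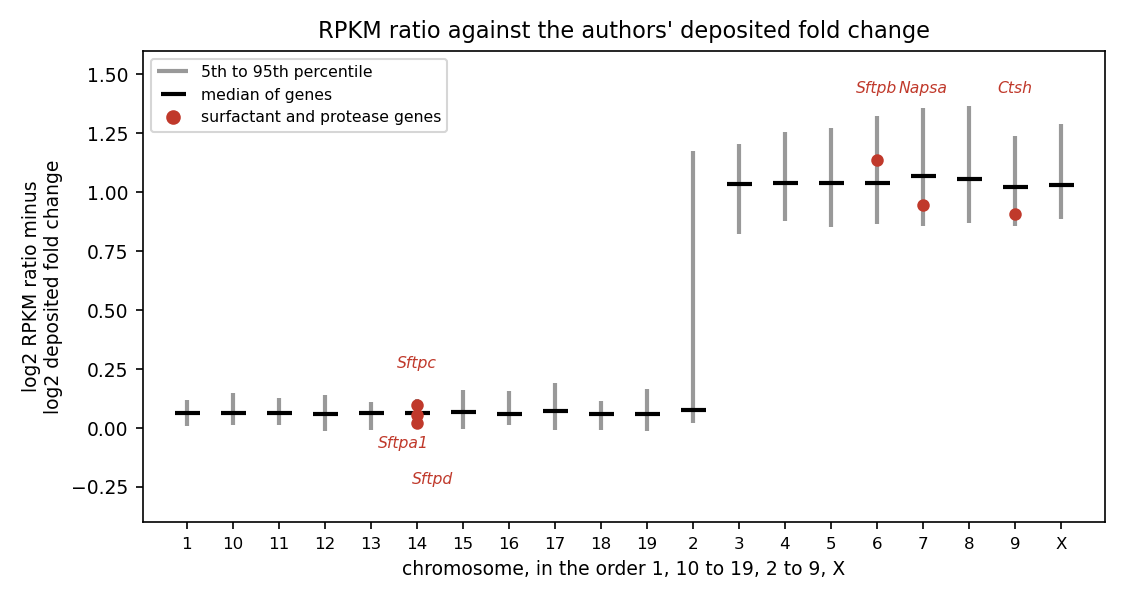
Log2 RPKM ratio (KO over WT means) minus the log2 fold change in the authors' deposited table, by chromosome in the order 1, 10 to 19, 2 to 9 and X. Black bars are medians over genes above 5 RPKM in all 4 libraries, grey lines run from the 5th to the 95th percentile and red points are the 6 genes, of which Sftpb, Napsa and Ctsh sit near 1.04 and Sftpa1, Sftpc and Sftpd near 0.06.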

How the data were processed

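RNA of EpCAM-sorted E18.5 mouse lung cells was measured in 4 libraries. Per the submitters' processing notes, mm10, DESeq, Cufflinks 2.0.2, TopHat2 2.0.8 and Bowtie2 2.1.0 were used, in roles not stated. Annotation and read numbers are not given in the sources used, and precision rests on the spread of libraries alone. Values are the authors' RPKM, per the file headers, and the RPKM filter at 2 in the headers matched the columns for all 23444 genes. The deposited p-value is not marked as adjusted. The deposited fold change is a signed score, and 4801 genes hold 0, 523 hold infinity and 1202 hold no number in it. Both were used only where a sentence names the authors' deposited table.

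The 10128 genes that reached 1 RPKM in 2 or more libraries entered 1 limma fit (3.58.1, R 4.3.3) on log2(RPKM + 1), with group as its term and the prior variance following a trend. Degrees of freedom were 2 (residual) and 3.65 (prior). Tests were two-sided, with Benjamini-Hochberg adjustment across the 10128. The fit was tested on simulated data. Since the table holds no counts, the planned count tests were not used.

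The 6 genes, lists and tests were chosen with earlier results of these data known. Genes named are the 6, Emc3, Epcam and selections from up to 4 per list by smallest p, the 3 most alike in profile and the nearest annotated neighbours. Scgb1a1, Slc34a2, Ptprc, Nkx2-1, Ctso, Ctsf, Ctsk, Ctsw, Nedd4l, Nedd4 and Itch were chosen after their values were seen. Alternatives were other scalings, pseudocounts and filters, no trend, each library left out, a block by heading number and the groups of the titles.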

Additional observations from a re-analysis of the deposited data

Results flagged for a closer look

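Of the 6 genes, 4 moved in opposite directions within the 2 heading numbers, on log2(RPKM + 1). The KO minus WT difference was 0.31 with number 27 and -0.44 with number 35 for Sftpa1, 0.40 and -0.12 for Sftpb, 0.21 and -0.41 for Sftpc, and 0.0011 and -0.19 for Napsa. With 1 library in each place, the difference between the numbers was not tested. The libraries with number 27 are KO without Xist RNA and WT with it, and those with number 35 the reverse, so heading number, sex and single libraries cannot be told apart.

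In the deposited columns that the tests did not use, the log2 fold change of the authors' deposited table lay below the log2 RPKM ratio by a median of 1.04 for the genes from the later part of chromosome 2 through 3 to 9 and X. The median is over genes above 5 RPKM in all 4 libraries, and Sftpb, Napsa and Ctsh are among them. Emc3, on chromosome 6, differed by 0.97 but was under 5 RPKM in KO, so it is not in that set.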

How the results depend on the processing

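None of the 6 genes passed an adjusted p of 0.05 in any setting run. Ctsh had a positive log2 difference in all 15 other settings, which are not independent checks. Those with another filter, no trend or the block keep its 0.54 by construction, and the groups of the titles are not KO against WT of the headings. Quantile normalization gave 0.16 for Sftpa1 and 0.86 for Sftpc, and moved Sftpb from 0.14 to 0.65. Scaling the libraries to the same sum moved the median of all genes to 0.18, and gave 0.091 for Sftpa1, 0.048 for Sftpc and 0.057 for Napsa, all below that shift. The groups of the titles, which set number 35 against number 27, gave 0.49, 0.26 and 0.32 for Sftpa1, Sftpc and Napsa. With single libraries left out, the differences ran from -0.49 to 0.37 for Sftpa1, -0.17 to 0.44 for Sftpb, -0.39 to 0.18 for Sftpc, -0.10 to 0.91 for Sftpd, -0.30 to 0.11 for Napsa and 0.30 to 0.77 for Ctsh. WT 27 set the sign of Sftpb and Sftpd (-0.17 and -0.10 without it), WT 35 that of Sftpa1, Sftpc and Napsa (0.37, 0.18 and 0.11 without it), and without KO 27 Napsa had 0.02. Without both KO 27 and WT 35, the libraries without Xist RNA, Sftpa1, Sftpc and Napsa had 0.43, 0.15 and 0.23. This setting was chosen after seeing the data. The cause of these reversals was not tested.

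The number of genes called was 7, and 30 with equal sums, 4 with a pseudocount of 5, 0 with no filter (1979 genes at an unadjusted limma p under 0.05), 4 with a filter of 10 RPKM, 4 with the groups of the titles, and 8 to 43 with single libraries left out (43 without WT 27, 28 without WT 35). A replicate block by heading number gave 9 calls and changed no call of the 6 genes. The deviations of same-numbered libraries from their group means correlated at 0.148 over 10128 genes. With 2 libraries in a group the deviations are equal and opposite, so both numbers give the same value by construction. The labels do not say what the number marks.

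By the titles, the difference is number 35 minus number 27, not KO minus WT of the headings. The groups of the titles gave log2 ratio differences of 0.10 for Sftpb to Sftpc, -0.036 for Napsa to Sftpb, 0.10 for Ctsh to Sftpc and 0.034 for Ctsh to Napsa, against 0.24, -0.23, 0.64 and 0.63 by the headings. With Epcam as the base, the relative differences were -0.46, -0.26, -0.50, 0.0093, -0.49 and 0.14 for Sftpa1, Sftpb, Sftpc, Sftpd, Napsa and Ctsh, against 0.42, 0.62, 0.37, 0.89, 0.39 and 1.02 with the type 2 markers. The edgeR and DESeq2 fits were not run, as the table holds no counts.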
